A study of Mus musculus with 12 samples.

Results

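Potassium channels carry the outward currents that end the cardiac action potential and hold the resting potential of the heart muscle cell. Voltage-gated Kv pore subunits open on depolarisation, inward rectifiers (Kir) pass current near the resting potential, two-pore-domain (K2P) channels give a background leak, and a further set opens with calcium or sodium inside the cell. Pore subunits work with accessory proteins such as the KChIP, KCNE and Kv beta subunits, and lower transient outward and inward rectifier currents are a known feature of the overloaded, failing ventricle. The genes described here are all those in the deposited count tables whose symbol starts with Kcn, with antisense and opposite-strand names (Kcnd3os and Kcnq1ot1) left out. They number 48 of 14957 genes and fall into 13 classes.

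The study tested gene therapy with BacNav, an engineered bacterial voltage-gated sodium channel, in pressure-overloaded mouse hearts by bulk RNA sequencing of ventricles. TAC-BacNav mice (n = 4) had transverse aortic constriction, a surgical narrowing of the aorta, and received AAV9-MHCK7-BacNav-mScarlet. TAC-mScarlet mice (n = 4) had the same constriction and received AAV9-MHCK7-mScarlet, which carries the red fluorescent protein mScarlet alone. Sham-NT mice (n = 4) had the sham operation and received PBS. All 12 mice were labelled WT and C57Bl/6J, their age is not stated in the labels, and MHCK7 is a muscle promoter. Because constriction and vector came together, their effects cannot be told apart in any comparison with Sham-NT.

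Libraries held 7361063 to 11497836 counts in TAC-BacNav, 8275608 to 9813733 in TAC-mScarlet and 5360869 to 7837342 in Sham-NT mice. Heart muscle content was described with 10 markers, most of which are not particular to the ventricle and so do not check that label. Their summed level was 65686 to 87441 CPM (counts scaled to a common library size) in TAC-BacNav libraries. It was 55557 to 73219 CPM in TAC-mScarlet and 85862 to 94029 CPM in Sham-NT libraries. In TAC-mScarlet against Sham-NT, 3 of these 10 (Myh6, Tnni3 and Tnnt2) fell and the median log2 fold change of all 10 was -0.47. Myl2, Myl3, Pln and Ryr2 had lower means without a call. Actc1 (9780 and 9776 CPM) and Actn2 (1650 and 1652 CPM) had near-equal means in TAC-mScarlet and Sham-NT mice. Mybpc3 had the higher mean in TAC-mScarlet, at 3184 against 2860 CPM. The summed level of 5 atrial markers was 41.6 to 76.4 CPM in TAC-BacNav, 38.5 to 58.5 CPM in TAC-mScarlet and 70.5 to 85.3 CPM in Sham-NT libraries, with 0 of the 5 called in edgeR. The defining atrial marker Myl7 stood between 0.116 and 5.35 CPM over the libraries, and Sln and Bmp10 are not among the genes analysed here. In the same comparison, 3 of 8 fibroblast markers (Lum, Col1a1 and Col1a2) and 5 of 8 macrophage markers rose, and the summed fibroblast level was 3213 to 5890 CPM in TAC-mScarlet and 2235 to 2958 CPM in Sham-NT libraries. The part of cell make-up in the channel results was not tested, and in bulk tissue fewer cells of a type and less RNA per cell cannot be told apart.

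Potassium channel transcripts, summed, had their lowest mean in TAC-mScarlet hearts. Levels are given as CPM on library sizes scaled by edgeR's TMM method. Summed over the 48 genes, the level was 1189, 1109, 862.8 and 906.2 CPM in TAC-BacNav libraries 1 to 4, against 1015, 988.3, 676.1 and 805.4 CPM in TAC-mScarlet and 1141, 1194, 1365 and 1229 CPM in Sham-NT libraries. Every TAC-mScarlet library lay below every Sham-NT library, while TAC-BacNav libraries overlapped with both other groups. Group means were 1017 ± 157 CPM in TAC-BacNav, 871 ± 160 CPM in TAC-mScarlet and 1232 ± 95.9 CPM in Sham-NT mice (SD, n = 4 each).

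Most of this level came from few genes. Per kilobase of exon, Kcnk3 led in Sham-NT ventricles with 63.7 CPM per kb. The length counts all annotated exons of a gene, so this scale compares genes only roughly. Kcnip2 followed with 50.4 CPM per kb, then Kcnj11 with 28.0 CPM per kb and Kcnj3 with 25.4 CPM per kb, and these 4 genes held 55.3% of the summed level per kb. In CPM, 43 of the 48 genes reached a Sham-NT mean of 1, 16 reached 10 and 4 reached 100. Neighbours in this order mostly did not differ beyond their spread over mice, as the plot of levels per kilobase shows.

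**Figure D1:**
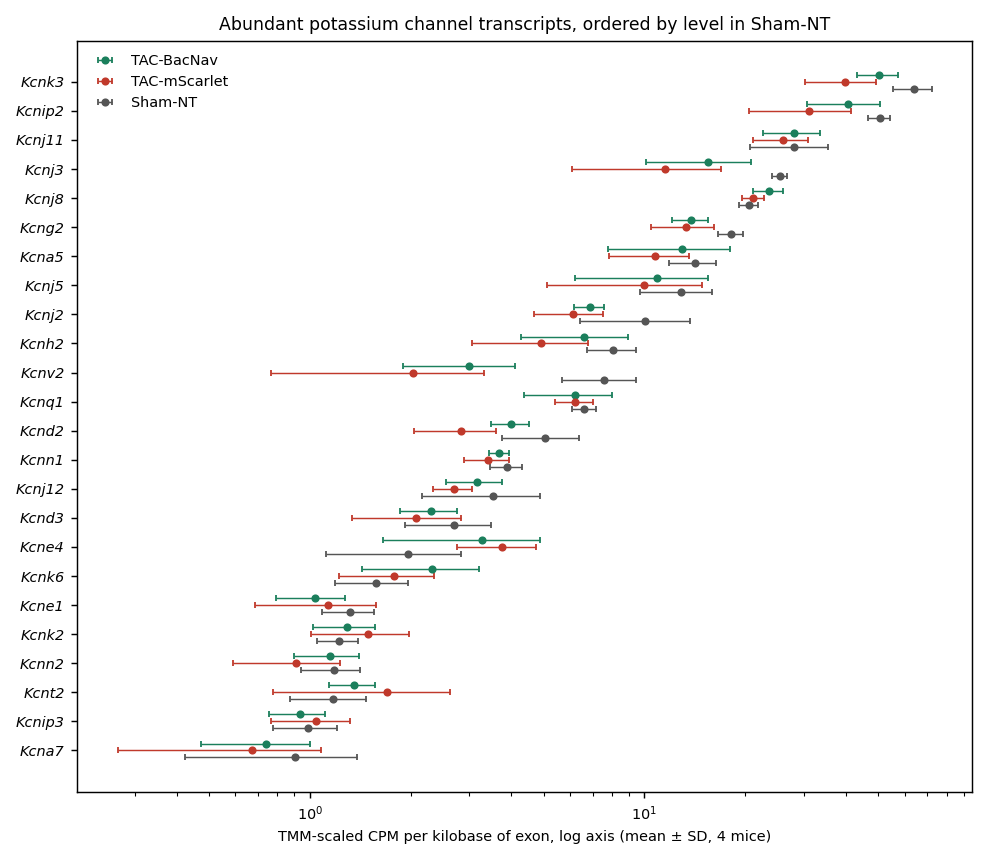
Level of 24 abundant potassium channel genes, in TMM-scaled CPM per kilobase of exon on a log axis, with genes ordered by their Sham-NT mean. Points are means and bars are SD over 4 mice in TAC-BacNav, TAC-mScarlet and Sham-NT; Kcnk3 and Kcnip2 stand highest in all 3 groups.

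The test across all genes used edgeR's quasi-likelihood fit with Benjamini-Hochberg adjustment, in which 43 of the 48 genes passed the filter on low counts. Kcnt1, Kcnj4, Kcnip1, Kcns3 and Kcnk1 did not pass. In TAC-mScarlet against Sham-NT, 4 of 43 channel genes passed an adjusted p of 0.05, where 5.17% of all 13910 tested genes did. Kcnv2, Kcnk3 and Kcnd2 fell, where 2.52% of all genes were called lower, and Kcnj14 rose, where 2.65% were called higher. DESeq2 called 7 of the 43, where it called 9.86% of all genes. At an unadjusted p of 0.05, 6 channel genes were higher and 11 lower, or 39.5% of the 43, where 22.2% of all genes passed. The median log2 fold change was -0.23 over the 43 genes and 0.00 over all genes, and 27 of the 43 values were below 0, or 62.8%, where 49.5% of all genes were. Libraries of the groups did not overlap for 9 channel genes, where 13.1% of all genes had no overlap. Of these 9, Kcnj14 was higher and 8 were lower in TAC-mScarlet, among them Kcnd2, Kcng2, Kcnh7, Kcnip2, Kcnj3, Kcnk3 and Kcnv2.

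In TAC-BacNav against TAC-mScarlet, 0 of 43 channel genes and 0% of all genes passed the adjusted threshold in edgeR. Kcnd2 (higher) and Kcnj14 (lower) had an unadjusted p under 0.05, which is 2 of 43 channel genes where 3.36% of all genes passed. DESeq2 called 0 channel genes and 0.0359% of all genes, and limma-voom called 0 channel genes. No channel gene had groups without overlap, where 1.7% of all genes did. The median log2 fold change was 0.12 over the 43 genes and 0.00 over all genes. TAC-BacNav against Sham-NT gave 0 of 43 calls in edgeR and in DESeq2, where 0.0144% of all genes passed in edgeR and 0.273% in DESeq2. Kcng2, Kcnj2, Kcnj3 and Kcnv2 were among 5 channel genes with an unadjusted p under 0.05 there, all lower in TAC-BacNav, or 11.6% of the 43, where 11.1% of all genes passed. Libraries did not overlap for 5 channel genes in that comparison, all lower in TAC-BacNav, where 2.37% of all genes were lower without overlap. With both TAC groups set together against Sham-NT, Kcnv2 alone of the 43 passed, where 2.57% of all genes did. The comparisons share libraries, so their values are given side by side and are not independent of each other.

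**Figure D2:**
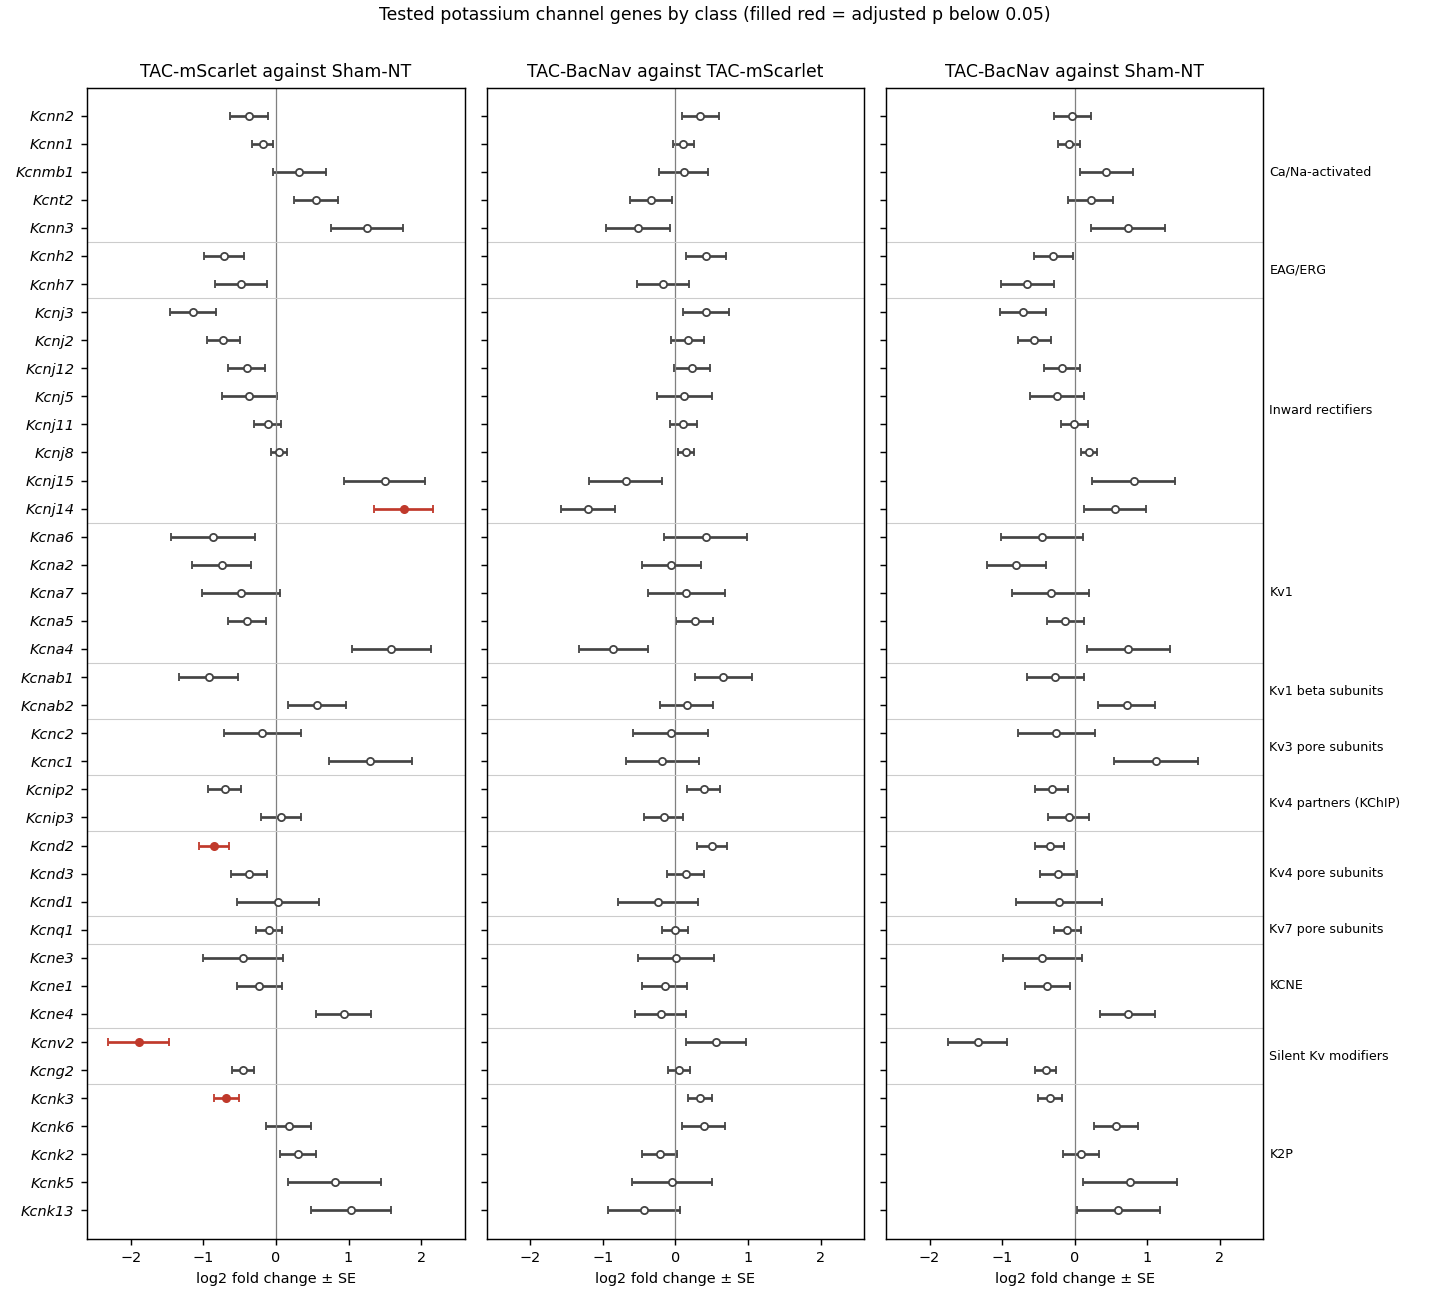
Log2 fold change with SE of 40 of the 43 tested potassium channel genes, grouped by class, in TAC-mScarlet against Sham-NT, TAC-BacNav against TAC-mScarlet and TAC-BacNav against Sham-NT. Filled red points passed an adjusted p of 0.05 in edgeR: Kcnj14, Kcnd2, Kcnv2 and Kcnk3 in the first comparison and none in the other panels.

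Among Kv4 channels and their partners, which form the fast transient outward current of the mouse ventricle, Kcnd2 fell. Kcnd2 encodes the pore subunit Kv4.2 and lies on GRCm38 at chr6:21215503-21729805. Its level was 23.5, 22.0, 17.5 and 19.5 CPM in TAC-BacNav, 16.6, 19.0, 12.5 and 10.1 CPM in TAC-mScarlet, and 21.4, 23.0, 36.0 and 23.9 CPM in Sham-NT libraries. Every TAC-mScarlet library was below every Sham-NT library, and TAC-BacNav libraries overlapped with both. The log2 fold change of Kcnd2 in TAC-mScarlet against Sham-NT was -0.85 ± 0.21 (SE; edgeR adjusted p = 0.0319). In TAC-BacNav against TAC-mScarlet it was 0.50 ± 0.21, with a 95% interval of 0.07 to 0.94 and an edgeR unadjusted p of 0.0263 that the adjustment over all genes took to 1.00. In TAC-BacNav against Sham-NT it was -0.35 ± 0.20 (edgeR adjusted p = 0.531). The call in TAC-mScarlet against Sham-NT was lost without mouse 3 or 4 of TAC-mScarlet or without mouse 2, 3 or 4 of Sham-NT, with edgeR adjusted p from 0.0551 to 0.102, and with library-size scaling (edgeR adjusted p = 0.0522).

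Kcnip2 encodes KChIP2, the cytoplasmic partner that Kv4 channels need for surface expression in mouse heart. Its level was 180.0, 158, 104 and 122 CPM in TAC-BacNav, 119.9, 141, 56.2 and 113 CPM in TAC-mScarlet, and 165, 178, 193 and 165 CPM in Sham-NT libraries. All TAC-mScarlet libraries were below the lowest Sham-NT library, and mouse 3 was the lowest in both TAC groups. The edgeR fit gave a log2 fold change of -0.71 ± 0.23 in TAC-mScarlet against Sham-NT with an adjusted p of 0.0854, so Kcnip2 did not pass, although DESeq2 called it. Against TAC-mScarlet, TAC-BacNav gave 0.39 ± 0.23, with a 95% interval of -0.10 to 0.88. The level per kb of Kcnd2 divided by that of Kcnip2 was 0.101 ± 0.0120 in TAC-BacNav, 0.0986 ± 0.0372 in TAC-mScarlet and 0.0995 ± 0.0181 in Sham-NT mice (SD, n = 4 each). These means lay within each other's spread. Kcnd3 (Kv4.3) averaged 22.1, 20.0 and 25.9 CPM in TAC-BacNav, TAC-mScarlet and Sham-NT mice, with overlapping libraries. Kcnd1 and Kcnip3 had means between 1.08 and 3.69 CPM and did not pass in any comparison.

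Klf15, a transcription factor known to control Kcnip2 in mouse heart, was on a list of 17 channel partners and regulators set beside the channel genes. Of the 17, 14 were in the files and 13 were tested. Klf15 fell in TAC-mScarlet against Sham-NT and was the only one of the 13 to pass in edgeR; the median log2 fold change of the 13 was -0.15. Its level was 39.1, 29.9, 42.8 and 36.7 CPM in TAC-BacNav, 34.4, 25.5, 15.0 and 28.5 CPM in TAC-mScarlet, and 48.0, 39.2, 59.8 and 50.6 CPM in Sham-NT libraries. The log2 fold change of Klf15 was -0.94 ± 0.21 (edgeR adjusted p = 0.0251) in TAC-mScarlet against Sham-NT and 0.53 ± 0.21 (edgeR adjusted p = 1.00) in TAC-BacNav against TAC-mScarlet. None of the 13 passed in either comparison of TAC-BacNav. Klf15 no longer passed against Sham-NT without mouse 3 of TAC-mScarlet (edgeR adjusted p = 0.0538) or without mouse 2 (0.0667) or mouse 4 (0.0781) of Sham-NT.

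The stretches of 250 bases before the RefSeq start of Kcnd2 and Kcnip2 are shown because both genes build the same channel and had lower means in both TAC groups. They come from RefSeq on GRCm38.p6 and read 5′ to 3′ on the gene's own strand, at chr6:21215096-21215345 (plus strand) for Kcnd2 and chr19:45816064-45816313 (minus strand) for Kcnip2. The GENCODE start of Kcnd2, at 21215503, lies further downstream than the end of its stretch. Bases after the RefSeq start were found in a GENCODE transcript for Kcnip2 and not for Kcnd2. Capitals mark CACCC or its reverse complement GGGTG, the core of the sites that Krüppel-like factors bind.
Kcnd2: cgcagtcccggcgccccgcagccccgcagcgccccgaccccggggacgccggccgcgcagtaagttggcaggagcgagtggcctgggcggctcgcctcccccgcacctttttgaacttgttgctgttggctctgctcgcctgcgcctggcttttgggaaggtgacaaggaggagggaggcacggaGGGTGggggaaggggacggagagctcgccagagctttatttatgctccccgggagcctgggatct
Kcnip2: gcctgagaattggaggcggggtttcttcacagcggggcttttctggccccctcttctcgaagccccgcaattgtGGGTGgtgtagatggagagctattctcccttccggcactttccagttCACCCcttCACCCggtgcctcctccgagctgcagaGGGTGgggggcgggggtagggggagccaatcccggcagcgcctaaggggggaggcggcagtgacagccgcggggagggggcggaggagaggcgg
Counted on both strands, the motif stood once upstream of Kcnd2 (n = 1) and in 4 places upstream of Kcnip2, 2 of them on the gene's own strand. It is a common motif: 52% of 32851 RefSeq promoters of this length hold it, as do 36 of the 51 promoters listed for 34 of the channel genes, so its presence is a description of these letters only. The Iroquois-type palindrome ACANNTGT was in neither stretch and in 6.31% of all promoters. The RefSeq table used here has no entry for Kcnv2, Kcnk3 or Kcnj14.

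The largest fall among the 43 tested genes was in Kcnv2 (chr19:27322588-27337179), which encodes Kv8.2, a silent subunit that forms no channel of its own and changes the gating of other Kv channels. Its level was 22.8, 14.8, 14.4 and 9.21 CPM in TAC-BacNav, 13.7, 17.9, 4.22 and 5.80 CPM in TAC-mScarlet, and 47.4, 44.9, 26.1 and 36.1 CPM in Sham-NT libraries. All 8 TAC libraries were below every Sham-NT library, and the TAC groups overlapped. In TAC-mScarlet against Sham-NT the log2 fold change of Kcnv2 was -1.89 ± 0.42 (edgeR adjusted p = 0.0295). In TAC-BacNav against Sham-NT it was -1.34 ± 0.40, which did not pass (edgeR adjusted p = 0.367). In TAC-BacNav against TAC-mScarlet it was 0.56 ± 0.42, with a 95% interval of -0.35 to 1.46. Both TAC groups together gave -1.61 ± 0.34 against Sham-NT (edgeR adjusted p = 0.0398). Without mouse 3 or 4 of TAC-mScarlet or mouse 1, 2 or 4 of Sham-NT, Kcnv2 did not pass in TAC-mScarlet against Sham-NT (edgeR adjusted p from 0.0623 to 0.0866). The call for both TAC groups was lost in 7 of 12 fits without 1 library (mice 2, 3 and 4 of TAC-BacNav, mouse 4 of TAC-mScarlet and mice 1, 2 and 4 of Sham-NT), with edgeR adjusted p from 0.0599 to 0.146.

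Kcng2 (Kv6.2), another silent subunit, had 39.1, 45.1, 45.6 and 34.9 CPM in TAC-BacNav, 48.6, 32.3, 32.6 and 45.1 CPM in TAC-mScarlet, and 57.3, 50.4, 50.3 and 59.1 CPM in Sham-NT libraries. Every TAC library was again below every Sham-NT library, but the smaller shift of -0.45 ± 0.15 in TAC-mScarlet against Sham-NT did not pass (edgeR adjusted p = 0.0847). Summed silent Kv subunits, Kcns3 included, reached 57.1 ± 8.51 CPM in TAC-BacNav, 50.6 ± 10.6 CPM in TAC-mScarlet and 93.4 ± 12.0 CPM in Sham-NT mice.

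**Figure D3:**
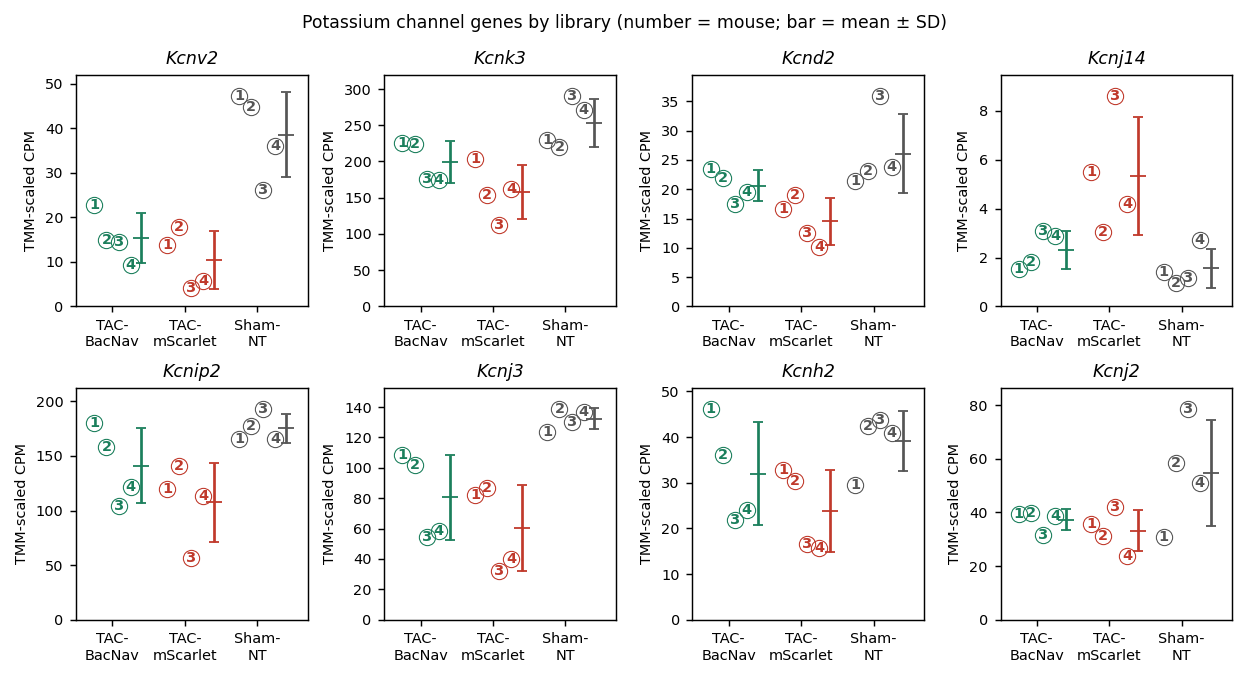
TMM-scaled CPM of 8 potassium channel genes in each library, on linear axes from 0, with TAC-BacNav, TAC-mScarlet and Sham-NT from left to right; circled numbers are mice and the bars are mean ± SD (n = 4). Kcnv2 and Kcnj3 lie below every Sham-NT library in all 8 TAC mice, and Kcnj14 lies above every Sham-NT library in TAC-mScarlet.

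Among K2P channels, Kcnk3 (chr5:30588170-30625271), the acid-sensitive background channel TASK-1 and the most abundant channel transcript per kb, fell. Its level was 225, 224, 175 and 174 CPM in TAC-BacNav, 204, 154, 112 and 162 CPM in TAC-mScarlet, and 229.8, 221, 291 and 272 CPM in Sham-NT libraries. No TAC-mScarlet library reached the lowest Sham-NT library, whereas mice 1 and 2 of TAC-BacNav did. In the fit, the log2 fold change of Kcnk3 was -0.68 ± 0.17 in TAC-mScarlet against Sham-NT (edgeR adjusted p = 0.0323). It was 0.34 ± 0.17 in TAC-BacNav against TAC-mScarlet, with a 95% interval of -0.01 to 0.69, and -0.34 ± 0.17 in TAC-BacNav against Sham-NT (edgeR adjusted p = 0.455). The call was lost without mouse 2, 3 or 4 of TAC-mScarlet or mouse 1, 2 or 4 of Sham-NT, with edgeR adjusted p from 0.0531 to 0.0948. Part of an exon of Kcnk3 is shared with Gm9899 on the opposite strand, and the labels do not say whether counting used strand.

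Kcnk1 (TWIK-1) was too low to be tested. It had 6, 6, 1 and 4 counts in TAC-BacNav, 5, 2, 0 and 0 counts in TAC-mScarlet, and 9, 7, 11 and 7 counts in Sham-NT libraries, and the fit without a filter on low counts called it lower in TAC-mScarlet than in Sham-NT. Its mean level was 0.206 CPM in TAC-mScarlet and 1.42 CPM in Sham-NT mice. Kcnk2 (TREK-1, a stretch-activated channel) averaged 6.39 ± 1.34 CPM in TAC-BacNav, 7.39 ± 2.39 CPM in TAC-mScarlet and 6.05 ± 0.842 CPM in Sham-NT mice, with no call. Kcnk5, Kcnk6 and Kcnk13 had log2 fold changes of 0.81, 0.17 and 1.03 in TAC-mScarlet against Sham-NT, none of which passed. Summed K2P transcripts were 219 ± 31.3 CPM in TAC-BacNav, 176 ± 35.7 CPM in TAC-mScarlet and 269 ± 32.4 CPM in Sham-NT mice, most of it Kcnk3.

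One inward rectifier rose while more abundant ones had lower means. Kcnj14 (chr7:45816460-45824782) encodes Kir2.4, a strong rectifier of the Kir2 family. It stood at 1.51, 1.81, 3.07 and 2.88 CPM in TAC-BacNav, 5.50, 3.06, 8.63 and 4.18 CPM in TAC-mScarlet, and 1.39, 0.976, 1.16 and 2.72 CPM in Sham-NT libraries. These levels rest on 13 to 35 counts per library in TAC-BacNav, 27 to 90 in TAC-mScarlet and 5 to 17 in Sham-NT. All TAC-mScarlet libraries exceeded all Sham-NT libraries, and mouse 3 of TAC-BacNav lay just above mouse 2 of TAC-mScarlet. The log2 fold change of Kcnj14 was 1.76 ± 0.41 in TAC-mScarlet against Sham-NT (edgeR adjusted p = 0.0280). In TAC-BacNav against TAC-mScarlet it was -1.20 ± 0.37, with an edgeR unadjusted p of 0.00562 that did not survive adjustment (adjusted p = 1.00). TAC-BacNav against Sham-NT gave 0.56 ± 0.43 (edgeR adjusted p = 0.635). Kcnj14 no longer passed in TAC-mScarlet against Sham-NT without mouse 3 of TAC-mScarlet or mouse 1, 2 or 4 of Sham-NT (edgeR adjusted p from 0.0585 to 0.0960), or in limma-voom (adjusted p = 0.0507).

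Kcnj2 (Kir2.1), the main pore of the current that sets the ventricular resting potential, had 39.4, 39.7, 31.6 and 38.6 CPM in TAC-BacNav, 35.8, 31.3, 42.0 and 23.8 CPM in TAC-mScarlet, and 30.7, 58.6, 78.6 and 51.1 CPM in Sham-NT libraries. Mouse 1 of Sham-NT fell among the TAC libraries and the other 3 Sham-NT libraries lay above all of them. For Kcnj2 the log2 fold change was -0.72 ± 0.23 in TAC-mScarlet against Sham-NT (edgeR adjusted p = 0.0750) and -0.56 ± 0.23 in TAC-BacNav against Sham-NT (edgeR adjusted p = 0.409). Its partner Kcnj12 (Kir2.2) averaged 8.67, 7.41 and 9.68 CPM in TAC-BacNav, TAC-mScarlet and Sham-NT mice, with overlapping libraries.

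Kcnj3 and Kcnj5 encode GIRK1 and GIRK4, which together form the acetylcholine-activated potassium channel. Kcnj3 had 108, 102, 54.7 and 58.7 CPM in TAC-BacNav, 82.0, 86.9, 31.8 and 39.8 CPM in TAC-mScarlet, and 124, 139, 130.1 and 137 CPM in Sham-NT libraries. All TAC libraries were below all Sham-NT libraries, and within each TAC group mice 1 and 2 were well above mice 3 and 4. The log2 fold change of Kcnj3 was -1.14 ± 0.32 in TAC-mScarlet against Sham-NT (edgeR adjusted p = 0.0585), -0.71 ± 0.32 in TAC-BacNav against Sham-NT (edgeR adjusted p = 0.437) and 0.43 ± 0.32 in TAC-BacNav against TAC-mScarlet. In TAC-mScarlet against Sham-NT, Kcnj3 passed in 6 of 10 alternatives that kept all libraries, DESeq2 and limma-voom among them, with adjusted p from 0.00289 to 0.0632 over the 10. Except for limma-voom, those 6 also called more of all genes, 889 to 1456 against 719 in the fit above. With 1 library left out, 2 of 8 fits called Kcnj3 (edgeR adjusted p from 0.0365 to 0.140). Kcnj3 shares 1621 of its 5215 exon bases with Gm26794 on the opposite strand. Other channel genes, Kcng2, Kcnk2 and Kcnn2 among them, also share smaller parts of their exons with genes on the opposite strand.

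Kcnj5 had 74.9, 62.3, 26.5 and 39.9 CPM in TAC-BacNav, 55.9, 74.5, 25.4 and 31.2 CPM in TAC-mScarlet, and 43.4, 59.9, 79.1 and 58.0 CPM in Sham-NT libraries. Groups overlapped, and its log2 fold change in TAC-mScarlet against Sham-NT was -0.37 ± 0.38. Per kb, the ratio of Kcnj3 to Kcnj5 was 1.48 ± 0.256 in TAC-BacNav, 1.16 ± 0.114 in TAC-mScarlet and 2.06 ± 0.443 in Sham-NT mice (SD, n = 4 each).

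The pores of the ATP-sensitive channel showed no call. Kcnj11 (Kir6.2, the cardiomyocyte form) averaged 103 ± 19.8 CPM in TAC-BacNav, 95.5 ± 17.8 CPM in TAC-mScarlet and 103 ± 27.2 CPM in Sham-NT mice. Kcnj8 (Kir6.1, abundant in vascular smooth muscle and pericytes) averaged 59.8 ± 6.15 CPM in TAC-BacNav, 53.9 ± 4.06 CPM in TAC-mScarlet and 52.3 ± 3.51 CPM in Sham-NT mice. For TAC-mScarlet against Sham-NT the 95% intervals were -0.51 to 0.29 for Kcnj11 and -0.19 to 0.28 for Kcnj8, and the sign of each turned in some alternatives. Kcnj15 was above 2.5 CPM in 3 of 4 TAC-mScarlet libraries and at 0.679 CPM in mouse 2, against 0.781 to 1.68 CPM in Sham-NT libraries (edgeR adjusted p = 0.127).

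Kcnh2 encodes ERG1, the pore of the rapid delayed rectifier. It had 46.2, 36.0, 21.7 and 24.1 CPM in TAC-BacNav, 32.7, 30.5, 16.5 and 15.7 CPM in TAC-mScarlet, and 29.5, 42.4, 43.7 and 40.9 CPM in Sham-NT libraries. As with Kcnj3 and Kcnj5, mice 1 and 2 were above mice 3 and 4 in both TAC groups and not in Sham-NT. For Kcnh2 the log2 fold change in TAC-mScarlet against Sham-NT was -0.72 ± 0.28 and did not pass (edgeR adjusted p = 0.139). Kcnh7 stayed below 3.4 CPM in every library. For the slow delayed rectifier, Kcnq1 (Kv7.1) averaged 25.3, 25.4 and 27.1 CPM and its subunit Kcne1 3.32, 3.64 and 4.25 CPM in TAC-BacNav, TAC-mScarlet and Sham-NT mice, with no call. Kcne4, which inhibits several Kv channels in expression systems, averaged 8.69 ± 4.30 CPM in TAC-BacNav, 9.97 ± 2.63 CPM in TAC-mScarlet and 5.24 ± 2.26 CPM in Sham-NT mice (0.93 ± 0.38 in TAC-mScarlet against Sham-NT, edgeR adjusted p = 0.160). Kcne3 stayed below 2 CPM in every library.

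Of the Kv1 family, Kcna5 (Kv1.5, a slowly inactivating current of mouse ventricle) had 21.0, 28.2, 51.8 and 46.8 CPM in TAC-BacNav, 28.6, 29.6, 22.6 and 42.2 CPM in TAC-mScarlet, and 48.8, 33.6, 37.7 and 41.8 CPM in Sham-NT libraries. In TAC-BacNav mice 3 and 4 were above mice 1 and 2, opposite to Kcnj3. The groups overlapped and no comparison passed. Kcna4 (Kv1.4, the pore of the slow transient outward current) had 1.86, 1.09, 0.800 and 0.740 CPM in TAC-BacNav, 2.39, 1.70, 3.35 and 0.580 CPM in TAC-mScarlet, and 0.793, 0.390, 0.647 and 0.801 CPM in Sham-NT libraries. Mouse 4 of TAC-mScarlet lay within the Sham-NT range while the other 3 lay above it, and the log2 fold change of 1.59 ± 0.54 did not pass (edgeR adjusted p = 0.0943). Kcna2, Kcna6, Kcna7 and the beta subunits Kcnab1 and Kcnab2 had group means between 0.668 and 3.81 CPM and no call.

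The Kv3 subunits Kcnc1 and Kcnc2 were rare, with group means between 1.05 and 2.72 CPM, and their libraries overlapped between all groups.

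Summed calcium- and sodium-activated channels were within each other's spread, at 40.1 ± 3.14 CPM in TAC-BacNav, 40.0 ± 3.62 CPM in TAC-mScarlet and 39.4 ± 2.88 CPM in Sham-NT mice. The SK channel genes Kcnn1 and Kcnn2 had log2 fold changes of -0.18 ± 0.15 and -0.37 ± 0.26 in TAC-mScarlet against Sham-NT, and Kcnn3 had 1.25 ± 0.49 (edgeR adjusted p = 0.147). Kcnt2, a sodium-activated channel, stood at 21.2 CPM in mouse 3 of TAC-mScarlet and at 7.65 to 9.74 CPM in the other 3 mice of that group. Mouse 3 of TAC-mScarlet also had the highest summed level of fibroblast markers, and the part of that in the Kcnt2 value was not tested. Kcnmb1, a BK channel subunit of smooth muscle, had means of 2.44, 2.28 and 1.80 CPM in TAC-BacNav, TAC-mScarlet and Sham-NT mice. Kcnt1 had 0 to 17 counts per library.

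**Figure D4:**
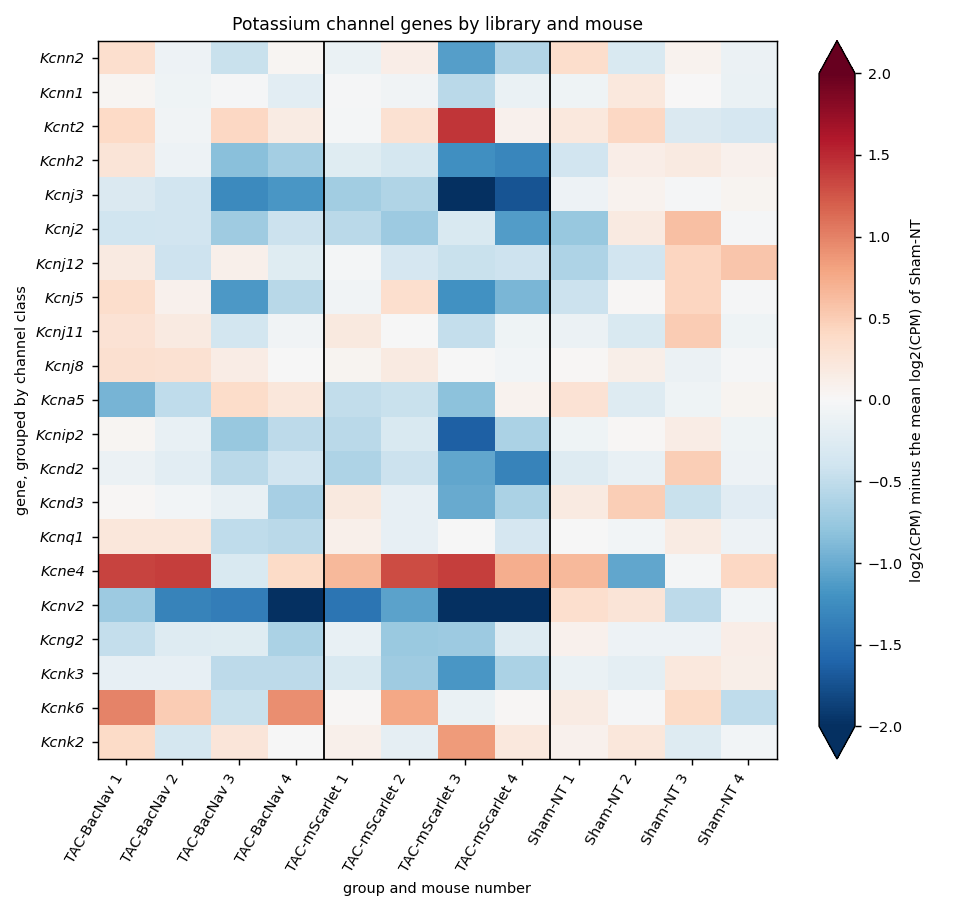
Log2 CPM of 21 potassium channel genes with a mean of at least 5 CPM in each of the 12 libraries, relative to the Sham-NT mean of log2 CPM, with TAC-BacNav, TAC-mScarlet and Sham-NT from left to right; colours are capped at -2 and 2. Kcnv2 is blue in all 8 TAC libraries, and Kcnj3, Kcnj5 and Kcnh2 are darker in mice 3 and 4 than in mice 1 and 2 of both TAC groups.

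The pattern by mouse number was chosen after the values were seen and is given as a description. Mice 1 and 2 lay above mice 3 and 4 in both TAC groups and not in Sham-NT for 6 of the 43 channel genes (Kcnd2, Kcnip2, Kcnj3, Kcnj5, Kcnj11 and Kcnh2), or 14%, where 5.32% of all tested genes had it. Mice 1 and 2 of each group also had more Fos, an immediate early gene, than mouse 4, with 158, 225, 3.87 and 5.26 CPM in TAC-BacNav, 301, 123, 154 and 7.89 CPM in TAC-mScarlet, and 80.5, 54.9, 5.56 and 1.60 CPM in Sham-NT libraries. Mesothelial markers, which mark the surface layer of the heart, also differed by mouse. Msln had 17.8, 28.4, 0.934 and 1.32 CPM in TAC-BacNav, 19.0, 11.9, 12.7 and 0.464 CPM in TAC-mScarlet, and 26.2, 17.4, 4.79 and 2.88 CPM in Sham-NT libraries. Upk3b, Upk1b and Lrrn4 were also lower in mouse 4 than in mice 1 and 2 of every group. Wt1 was not, with 10.3, 13.1, 10.4 and 13.3 CPM in TAC-mScarlet libraries. The summed level of the 5 mesothelial markers was 12.7 to 93.9 CPM in TAC-BacNav, 18.6 to 65.6 CPM in TAC-mScarlet and 13.1 to 109 CPM in Sham-NT libraries, and their part in the channel values was not tested. With the Fos level as a covariate in the edgeR fit, 9 of the 43 channel genes passed in TAC-mScarlet against Sham-NT, where 10.5% of all genes did. Those 9 were Kcnv2, Kcnk3, Kcnd2, Kcnip2, Kcnj3, Kcnh2 and Kcna2, all lower, and Kcnj14 and Kcnj15, both higher.

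All 4 calls in TAC-mScarlet against Sham-NT depended on single libraries. Of the 8 fits that left out 1 library of TAC-mScarlet or Sham-NT, the number of channel genes called ran from 0 to 7: 7 without mouse 1, 5 without mouse 2, 0 without mouse 3 and 1 without mouse 4 of TAC-mScarlet, and 2 without mouse 1, 0 without mouse 2, 3 without mouse 3 and 0 without mouse 4 of Sham-NT. The calls over all genes moved as well: they made up 4.64% without mouse 1, 4.48% without mouse 2, 0.692% without mouse 3 and 1.62% without mouse 4 of TAC-mScarlet, and 1.81% without mouse 1, 0.0991% without mouse 2, 7.45% without mouse 3 and 0.141% without mouse 4 of Sham-NT. The sign of these 4 genes held in each of those 8 fits, with log2 fold changes of -2.29 to -1.62 for Kcnv2, -0.83 to -0.55 for Kcnk3, -1.01 to -0.65 for Kcnd2 and 1.42 to 2.18 for Kcnj14. Mouse 3 of TAC-mScarlet had its group's lowest summed level of the 10 heart muscle markers (55557 CPM). Its summed fibroblast level was the group's highest (5890 CPM). Among the 4 called genes it was lowest of its group in Kcnk3 and Kcnv2 and highest in Kcnj14, while Kcnd2 was lowest in mouse 4. The part of cell make-up of that mouse in these calls was not tested.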

How the data were processed

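Ventricular RNA of 12 mice in 3 groups of 4 was measured by bulk RNA sequencing, and a table of raw counts per gene was deposited for each mouse. The submitters' processing notes name HISAT2, featureCounts and GRCh38, whereas the identifiers are mouse Ensembl genes, so gene positions and exon lengths were taken from GENCODE vM21 (GRCm38), which holds 14946 of the 14957 identifiers without their version. Tool versions, strand settings and filters are not stated in the labels. The smallest total over all libraries was 30 counts. Counts were fitted with edgeR 4.0.16 (R 4.3.3) using filterByExpr, TMM scaling, 1 mean per group over all 12 libraries and a robust quasi-likelihood test, with p-values adjusted over 13910 genes (1047 were removed), after the code was tested on simulated data. The common biological coefficient of variation was 0.203. DESeq2 1.42.0, limma 3.58.1 (voom), other scalings, no filter, a transcript length offset, the Fos level as covariate, a replicate block and leaving out each library were the alternatives. Every pair of libraries within a group differed by more than counting error (chi-square over genes divided by its degrees of freedom was at least 5.70). The labels do not say how mice share litters or days, and p-values measure the spread between these mice. Named genes were 24 listed cardiac channel genes (23 in the files), those called in any comparison, the 3 smallest p-values per comparison and called partners; the remaining channel genes are named as members, and 3 that stayed in every fit, sum and count are not reported here one by one. The members and lists were chosen with earlier results of these data known.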

Additional observations from a re-analysis of the deposited data

Results flagged for a closer look

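Of 108 groups of 4 libraries checked for a value far from the others, 3 held one. Chance gives about 1 in 20, so 3 is no more than chance gives. Kcnd2 in mouse 3 of Sham-NT was 36.0 CPM, against 21.4 to 23.9 CPM in the other 3 mice of that group, and without that mouse Kcnd2 did not pass in TAC-mScarlet against Sham-NT (edgeR adjusted p = 0.0551). Kcnj2 in mouse 3 of TAC-BacNav was 31.6 CPM, against 38.6 to 39.7 CPM in the other 3. The summed silent Kv subunits in mouse 4 of TAC-BacNav were 44.4 CPM, against 60.1 to 62.5 CPM in the other 3.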

How the results depend on the processing

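In TAC-mScarlet against Sham-NT, edgeR called 719 genes and 4 channel genes. The transcript length offset called 1200 genes and 7 channel genes, the Fos covariate 1456 and 9, DESeq2 1371 and 7, and limma-voom 475 and 4. Leaving out 1 library gave 14 to 1055 genes and 0 to 7 channel genes. Library-size scaling moved the median log2 fold change of all genes to 0.13 and the split of calls to 698 higher and 205 lower, against 369 and 350. The length offset moved that median the other way, to -0.12, and the split to 287 higher and 913 lower. The median of the channel genes moved with it, from -0.23 to -0.36. In TAC-BacNav against TAC-mScarlet, 0 genes became 1 with only those groups fitted and 5 with DESeq2. In TAC-BacNav against Sham-NT, 2 genes became 1 with only those groups, 1 with the length offset, 38 with DESeq2 and 0 to 15 with 1 library left out. Both TAC groups against Sham-NT gave 358 genes and 1 channel gene, against 1015 and 7 with the length offset, 1289 and 6 with the Fos covariate, 1109 and 8 with DESeq2, 120 with limma-voom, and 2 to 975 genes and 0 to 4 channel genes with 1 library left out. Deviations of mice with the same number correlated between -0.318 and 0.414. Mice with different numbers reached 0.56 (mouse 3 of Sham-NT with mouse 4 of TAC-BacNav), so equal numbers were not taken to pair mice. Between the TAC groups, mice 1 to 4 gave 0.41, -0.027, 0.19 and 0.39 with the same number. There, mouse 1 of TAC-mScarlet gave 0.33 with mouse 2 and -0.31 with mouse 4 of TAC-BacNav. Mouse 4 of TAC-mScarlet gave -0.39 and -0.35 with mice 1 and 2 of TAC-BacNav, and 0.29 and 0.39 with mice 3 and 4. Mouse 3 of TAC-mScarlet showed no such split, with 0.081 for mouse 2 and -0.073 for mouse 4. Within every group, mice 1 and 2 differed least. Their chi-square divided by its degrees of freedom was 9.33 in TAC-BacNav, 6.91 in TAC-mScarlet and 5.70 in Sham-NT. The main edgeR fit had no term for mouse number, and whether the numbers mark a shared batch was not tested. With a replicate block the calls were 889 genes and 6 channel genes in TAC-mScarlet against Sham-NT, 6 genes in TAC-BacNav against TAC-mScarlet, 12 in TAC-BacNav against Sham-NT, and 630 and 2 for both TAC groups. The replicate block with the length offset gave 1323 and 9, 7, 10, and 1175 and 10. The sign turned, with no call on either side, for Kcnq1 (0.032 with library-size scaling), Kcnj11 (0.0032 with library-size scaling) and Kcnj8 (-0.065 with the length offset, -0.068 with block and offset, -0.039 with the Fos covariate). With 1 library left out, Kcnj11 ran from -0.22 to 0.089 and Kcnj8 from -0.0074 to 0.084 in TAC-mScarlet against Sham-NT, and Kcng2 from -0.031 to 0.17 in TAC-BacNav against TAC-mScarlet. Of the 4 calls, Kcnd2 was lost with library-size scaling (adjusted p = 0.0522) and Kcnj14 with limma-voom (adjusted p = 0.0507). Over the 8 fits that leave out 1 library, the highest adjusted p was 0.102 for Kcnd2, 0.0866 for Kcnv2, 0.0948 for Kcnk3 and 0.0960 for Kcnj14. Of the genes not called in TAC-mScarlet against Sham-NT, Kcnj3 passed in 6, Kcnip2 in 4, Kcnj2 in 3, Kcnh2 and Kcng2 in 2, and Kcnj15 and Kcna2 in 1 of 10 alternatives with all libraries kept. The cause of these shifts was not tested. Genes under about 5 CPM rest on few counts, and 4 mice per group limit all comparisons.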
